A study of Mus musculus with 10 samples.

Results

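The genes examined encode the synaptonemal complex and the meiotic chromosome axis. They were chosen by gene symbol, as the 10 genes Sycp1, Sycp2, Sycp3, Syce1, Syce2, Syce3, Tex12, Hormad1, Hormad2 and Smc1b, and all 10 were found among the 20007 genes of the adult table and among the 17816 genes of the day 7 table. RNA was sequenced from mouse testis in 6 adult samples and from Sertoli cells, the somatic cells that surround and support the germ cells, in 4 samples taken at 7 days after birth. The adult samples were 3 with the genotype label WT and 3 labelled RNF20 conditional knockout, and the day 7 samples were 2 of each; all were labelled untreated. RNF20 is a ubiquitin ligase that modifies histone H2B. In the study's mice a Cre recombinase driven by the Amh promoter, which is active in Sertoli cells, removes a floxed part of Rnf20, so that germ cells keep the gene. The knockouts are called Amh-Rnf20-/- and the day 7 controls Rnf20 Flox/Flox in the study's methods, which describe the day 7 cells as Sertoli cells isolated with enzymes and kept in culture. The methods give 3 individuals per group at day 7, whereas the series holds 2 samples per group. The growth label names adult tissue for every sample, so the age of the day 7 samples was taken from their titles and the study. The genotype of the adult controls beyond WT, the age of the adult mice and whether the adult samples came from separate animals are not given in the sources used here, so p-values measure only the spread between these samples. The groups are called WT and cKO hereafter.

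In meiotic prophase each chromosome folds into loops along a protein axis, and the synaptonemal complex then joins the axes of homologous chromosomes like a zip. SYCP2 and SYCP3 build the lateral elements on the axis, SYCP1 forms the transverse filaments that bridge the gap, and SYCE1, SYCE2, SYCE3 and TEX12 form the central element where the filaments meet. HORMAD1 and HORMAD2 bind axes that are not yet synapsed, and SMC1B is the meiosis-specific version of the cohesin subunit SMC1. In the testis these proteins are known as products of spermatocytes, and Sertoli cells do not enter meiosis. In bulk RNA of a tissue, fewer cells of a type and less RNA per cell cannot be told apart.

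The stretches upstream of 4 members are shown because they hold the letters CACGTG, the palindromic E-box bound by several helix-loop-helix factors. A link between these letters and the levels in the adult cKO samples was not tested. The sequences are RefSeq's for GRCm38.p6, read 5′ to 3′ on the strand of the gene, and each ends 1 base before the annotated start. Capitals mark CACGTG and GGCGGGAA, the latter an E2F-type motif. They are given for Sycp3 at chr10:88459337-88459586 on the plus strand, Hormad1 at chr3:95559427-95559676 on the plus strand, Tex12 at chr9:50561269-50561518 on the minus strand and Sycp1 at chr3:102936101-102936350 on the minus strand.
Sycp3: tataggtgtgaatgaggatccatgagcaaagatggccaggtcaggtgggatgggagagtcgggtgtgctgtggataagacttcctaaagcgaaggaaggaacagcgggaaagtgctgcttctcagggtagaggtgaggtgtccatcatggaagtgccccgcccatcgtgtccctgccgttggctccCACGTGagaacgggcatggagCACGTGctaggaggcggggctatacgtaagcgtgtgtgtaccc
Hormad1: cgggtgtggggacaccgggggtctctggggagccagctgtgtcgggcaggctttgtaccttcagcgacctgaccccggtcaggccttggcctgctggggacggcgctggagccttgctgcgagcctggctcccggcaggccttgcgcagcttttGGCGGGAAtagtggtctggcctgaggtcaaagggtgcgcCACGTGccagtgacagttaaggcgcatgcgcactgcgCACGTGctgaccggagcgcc
Tex12: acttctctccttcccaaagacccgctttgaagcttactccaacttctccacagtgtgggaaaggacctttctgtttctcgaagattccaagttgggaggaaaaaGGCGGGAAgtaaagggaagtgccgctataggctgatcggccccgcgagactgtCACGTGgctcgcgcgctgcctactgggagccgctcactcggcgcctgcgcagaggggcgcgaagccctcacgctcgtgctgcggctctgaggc
Sycp1: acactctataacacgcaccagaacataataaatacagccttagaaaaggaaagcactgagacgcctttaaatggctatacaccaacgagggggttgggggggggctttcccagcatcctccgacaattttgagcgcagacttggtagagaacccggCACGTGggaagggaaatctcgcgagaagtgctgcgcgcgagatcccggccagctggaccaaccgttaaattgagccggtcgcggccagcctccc

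The Sycp3 stretch holds CACGTG at positions -64 and -43 from the start, and that of Hormad1 at -57 and -20. In Tex12 it lies at -93 and in Sycp1 at -94. GGCGGGAA lies at -96 in Hormad1 and at -146 in Tex12. Over the whole RefSeq windows, which run from 250 bases before to 50 after each start, and counting both strands, CACGTG was found for 5 of the 10 members, the fifth being Syce2, against 8.09% of 27025 genes. GGCGGGAA was found for 3 members (Hormad1, Tex12 and Syce2) against 2.52% of genes. CNCCTCAG, the motif of the meiotic inducers STRA8 and MEIOSIN, was found for 4 (Sycp1, Syce2, Tex12 and Hormad2) against 9.12%, and in Syce2 its letters overlap GGCGGGAA. AACTGCC, a MYB-type motif, was found for none of the 10 members against 4.76%. The 13 windows of the members, 2 each for Hormad1, Syce2 and Syce3, held between 5 and 33 CpG dinucleotides with a median of 19, where the median of all 32851 windows was 7. These are descriptions of letters in a window, with no test.

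All samples were of similar depth, between 15431912 and 16574144 counts in the adult table and between 17477268 and 17705347 at day 7. The adult groups differed in composition, so that TMM factors (edgeR's correction for composition) were 0.71 to 0.761 in WT and 1.27 to 1.42 in cKO. Scaling to total counts moved the median log2 fold change of all adult genes to 0.87 and gave 5836 higher and 2252 lower calls, where TMM scaling gave a median of 0.01 with 3660 higher and 3772 lower. Rnf20, the targeted gene, was at 4.89, 3.32 and 4.09 FPKM (fragments scaled by gene length and by the depth of the library) in the adult WT samples and at 9.16, 5.76 and 9.85 in cKO replicates 1, 2 and 3. By FPKM it was above the WT range in each adult cKO sample, but after division by the TMM factors cKO replicate 2 was below it, at 4.27 against 4.68 to 6.43. Rnf20 had a log2 fold change of 0.12 (adjusted p = 0.688 in edgeR) that became 0.97 (adjusted p = 0.0168) with total counts. At day 7 Rnf20 was at 16.64 and 16.01 FPKM in WT and at 10.25 and 12.58 in cKO (log2 fold change -0.49, adjusted p = 0.222 in edgeR).

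One adult library stood apart. In cKO replicate 1 the 5 germ cell markers found (Ddx4, Dazl, Mael, Tdrd1 and Sohlh1) summed to 1.89 FPKM, against 123.8 and 190.5 in the other two cKO samples and 1480.4 to 1520.1 in WT, and Stra8 was listed at 0. Its Sertoli cell markers were mixed. The 12 of the list summed to 639.0 FPKM, against 3377.5 and 4264.4 in cKO replicates 2 and 3. Sox9 was at 1.20 FPKM, against 9.86 and 12.65 in those samples. Gata4, after division by the TMM factors, was at 42.1, against 42.7 and 38.6. The adult counts of genes called are therefore given with and without this library.

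In adult testis all 10 genes were lower in every cKO sample than in every WT sample. By FPKM this was so for 32.4% of the 15919 genes tested in the adult table, while 54.9% were above WT in every cKO sample. The summed FPKM of the 10 genes was 1842.8, 1865.2 and 1643.2 in WT replicates 1, 2 and 3. It was 30.1, 191.4 and 298.5 in cKO replicates 1, 2 and 3. As a share of all counts the genes took 0.162% to 0.171% in WT, and 0.00232%, 0.0236% and 0.0389% in the cKO samples in the same order.

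The study's thresholds, an absolute log2 fold change above 1 and an adjusted p below 0.001, were passed by 1 of the 10 genes, Syce2, in edgeR's quasi-likelihood test. They were passed by 23.7% of the genes tested in the lower direction and by 23% in the higher. At an adjusted p below 0.05 at any fold, 7 of the 10 were lower, against 40.6% of the genes tested, and with total counts 3 were, against 30% of the genes tested. Leaving out any 1 adult sample other than cKO replicate 1 gave 3 or 4 of the 10. In those fits 12018 to 12575 of the 15919 genes tested had an adjusted p below 0.05, counting both lower and higher genes. DESeq2 called 3 of the 10 lower past both thresholds, where it called 35.5% of the genes tested. Without cKO replicate 1, all 10 passed both thresholds in the lower direction, where 31.6% of the genes tested did so and 33.1% passed in the higher direction. All 10 then also had an adjusted p below 0.05, against 41.1% of the genes tested in the lower direction. The log2 fold changes of the 10 genes lay between -5.56 and -2.59 with a median of -3.33. Without cKO replicate 1 their median was -2.62, and with total counts it was -2.42; the median of all genes under total counts is given above. Each of the 10 log2 fold changes was below 0 under every setting tried.

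**Figure D1:**
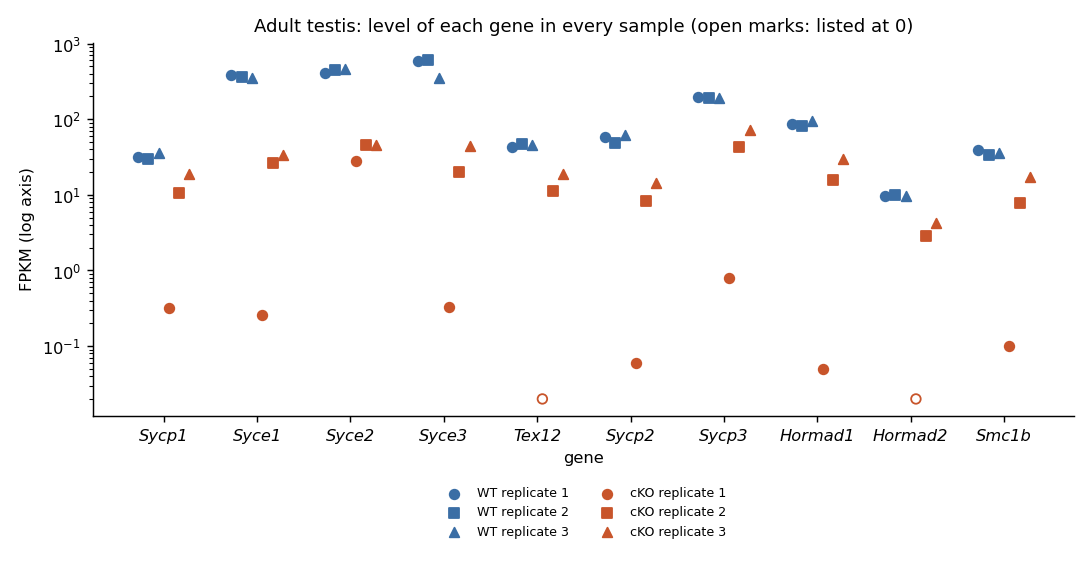
FPKM of the 10 genes in each of the 6 adult testis samples on a log axis; blue marks are WT, orange marks cKO, the shape gives the replicate, and open marks at the foot are values listed at 0. Every orange mark lies below every blue one, and 9 of the 10 genes are below 1 FPKM in cKO replicate 1, where Syce2 is at 28.20.

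The transverse filament gene Sycp1 was at 31.71, 29.35 and 35.67 FPKM in adult WT replicates 1, 2 and 3, and at 0.32, 10.63 and 18.61 in cKO replicates 1, 2 and 3. The cKO samples all lay below WT, with replicate 1 far below the other two. Its log2 fold change was -2.59 (SE 1.08, adjusted p = 0.0638 in edgeR), the smallest of the 10, and it did not pass the thresholds. As counts scaled to the library total (CPM), cKO replicate 3 kept 58.1% of the WT mean, replicate 2 kept 33.5% and replicate 1 kept 1.12% (exact Poisson 95% interval 0.639% to 1.82%, which covers counting error only, as do the other intervals given).

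Of the central element genes, Syce1 was at 388.99, 364.41 and 355.67 FPKM in WT and at 0.26, 26.15 and 33.12 in cKO. The groups did not overlap, and the highest cKO sample held 8.97% of the WT mean in CPM. The log2 fold change was -5.12 (SE 1.42, adjusted p = 0.0148 in edgeR). Syce3, whose product links SYCP1 to the rest of the central element, was at 585.98, 612.74 and 354.75 FPKM in WT and at 0.33, 20.05 and 44.25 in cKO. WT replicate 3 was lower than the other WT samples, and still above every cKO sample. Its log2 fold change of -5.56 (SE 1.16, adjusted p = 0.0046 in edgeR) was the most negative of the 10.

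Syce2 and Tex12 encode partners that assemble into a common fibre, and their values in cKO replicate 1 were unlike each other. Syce2 was at 404.27, 444.78 and 458.78 FPKM in WT and at 28.20, 46.12 and 45.68 in cKO. It fell 18.8-fold (log2 fold change -4.23, SE 0.23, adjusted p = 3.4e-05 in edgeR), and its cKO samples were close to one another, at 6.99%, 11% and 11% of the WT mean. These percentages carry no TMM scaling, and with total counts the log2 fold change was -3.37 (10.3-fold, adjusted p = 4.52e-05 in edgeR). Tex12 was at 42.49, 47.51 and 45.90 FPKM in WT and was listed at 0 in cKO replicate 1, with 11.18 and 18.69 in replicates 2 and 3. Its count of 0 in replicate 1 allows up to 1.15% of the WT mean (3 counts). The log2 fold change was -3.08 (SE 1.07, adjusted p = 0.0346 in edgeR). In cKO replicate 1 Syce2 made up 93.6% of the summed FPKM of the 10 genes, where its share was 15.3% to 27.9% in the other adult samples.

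The lateral element genes were lower in the same pattern. Sycp2 was at 58.95, 49.12 and 61.81 FPKM in WT and at 0.06, 8.39 and 14.55 in cKO, with a log2 fold change of -3.78 (SE 1.45, adjusted p = 0.0485 in edgeR). Sycp3 was at 195.23, 191.56 and 191.17 FPKM in WT and at 0.80, 42.51 and 72.40 in cKO, with a log2 fold change of -3.22 (SE 1.23, adjusted p = 0.0477 in edgeR). WT samples of Sycp3 differed by little, and the 3 cKO samples differed from each other more than any of the WT samples did. In cKO replicate 1 there were 4 counts of Sycp2 and 11 of Sycp3, which is 0.0893% (0.0243% to 0.229%) and 0.414% (0.207% to 0.74%) of the WT mean.

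Hormad1, whose product marks unsynapsed axes, was at 86.07, 82.01 and 93.83 FPKM in WT and at 0.05, 15.76 and 29.54 in cKO (log2 fold change -3.43, SE 1.37, adjusted p = 0.0557 in edgeR). Its paralogue Hormad2 was the least abundant member, at 9.62, 9.90 and 9.69 FPKM in WT, listed at 0 in cKO replicate 1 and at 2.87 and 4.24 in replicates 2 and 3 (log2 fold change -2.94, SE 1.06, adjusted p = 0.0398 in edgeR). The count of 0 for Hormad2 allows up to 1.33% of the WT mean (3 counts). Smc1b was at 39.48, 33.77 and 35.94 FPKM in WT and at 0.10, 7.69 and 17.40 in cKO (log2 fold change -3.02, SE 1.30, adjusted p = 0.0703 in edgeR). For all 3 genes the cKO samples kept the same order, with replicate 1 lowest and replicate 3 highest, and none passed both thresholds with all samples.

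**Figure D2:**
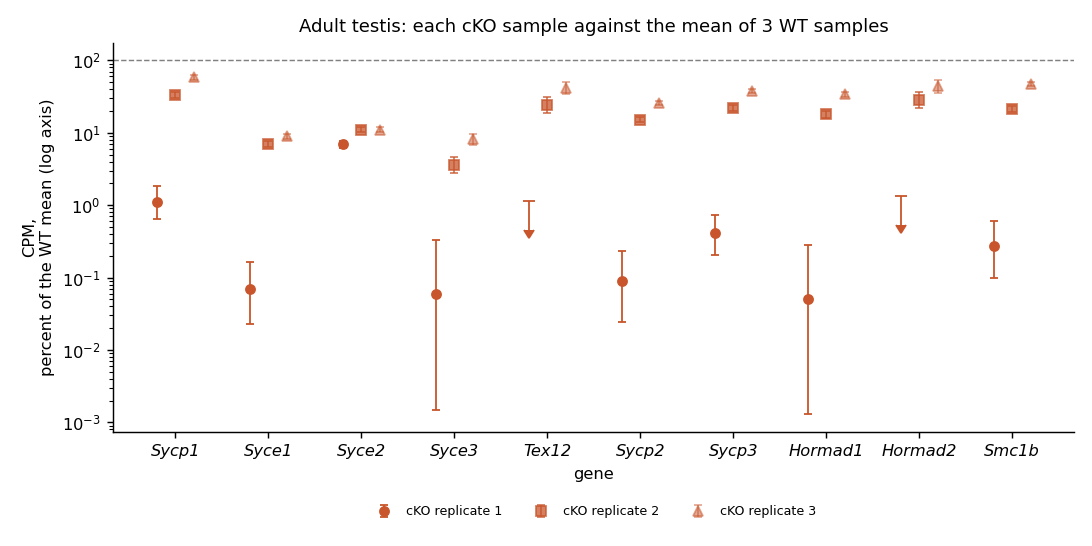
CPM of each gene in the 3 adult cKO samples as a percentage of the mean of the 3 WT samples, on a log axis; bars are exact Poisson 95% intervals of the count, downward arrows start at the limit of 3 counts that a count of 0 allows, and the dashed line is the WT mean. Syce1, Syce2 and Syce3 reach at most 8.97%, 11% and 8.21% in any cKO sample, while Sycp1 reaches 58.1%.

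The members were not lower to the same degree. In cKO replicate 3 the share of the WT mean ran from 8.21% for Syce3, 8.97% for Syce1 and 11% for Syce2 to 44.3% for Hormad2, 47.8% for Smc1b and 58.1% for Sycp1. In cKO replicate 2 the lowest were again Syce3 at 3.62%, Syce1 at 7.05% and Syce2 at 11%, and the highest was Sycp1 at 33.5%. The same 3 central element genes were thus lowest in both samples, and Sycp1 was highest. In cKO replicate 1, 8 of the genes had at most 11 counts, and their order there was not read.

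In WT the order of levels by FPKM began with Syce3, Syce2 and Syce1, whose ranges overlapped through the wide range of Syce3. Sycp3, Hormad1, Sycp2 and Tex12 followed without overlap between neighbours. Smc1b and Sycp1 came next with overlapping ranges, and Hormad2 was lowest. In cKO replicates 2 and 3 Syce2 and Sycp3 were the top members, and Syce3, the highest in WT replicates 1 and 2, ranked 4 and 3.

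Library scaling cancels in the ratio of partners within a sample where both values are far above the pseudocount added, while a ratio with a value near 0 depends on the pseudocount. As log2 of (FPKM + 0.1), Sycp2 to Sycp3 was -1.77 ± 0.17 (SD, n = 3) in WT and -2.38 ± 0.10 (n = 3) in cKO, and each cKO sample lay below each WT sample. The exact two-sided permutation test gave p = 0.1, the smallest 3 against 3 allows, and 0.167 after adjustment over 5 pairs; the difference of -0.60 turned to 0.02 with a pseudocount of 1. Syce1 to Syce3 was -0.45 ± 0.40 (n = 3) and -0.10 ± 0.42 (n = 3; exact p = 0.4, adjusted 0.5). Syce2 to Tex12 was 3.26 ± 0.05 (n = 3) in WT and took the values 8.14, 2.03 and 1.28 in cKO replicates 1, 2 and 3 (exact p = 1, adjusted 1), and the difference of 0.56 became -1.60 without replicate 1. Hormad1 to Hormad2 was 3.15, 3.04 and 3.26 in WT and 0.58, 2.42 and 2.77 in cKO (exact p = 0.1, adjusted 0.167). The value of cKO replicate 1 rests on 1 count of Hormad1 and 0 of Hormad2, and the difference of -1.22 became -0.55 without this sample and also -0.55 with a pseudocount of 0.01. Smc1b to Smc1a, the general subunit that replaces it outside meiosis, had the widest gap, from 4.63 ± 0.27 (n = 3) in WT to -6.99, -1.32 and -0.35 in cKO replicates 1, 2 and 3 (exact p = 0.1, adjusted 0.167). The value of cKO replicate 1 rests on 6 counts of Smc1b, and the difference of -7.52 became -5.47 without this sample. With this number of samples no pair could pass a threshold of 0.05.

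**Figure D3:**
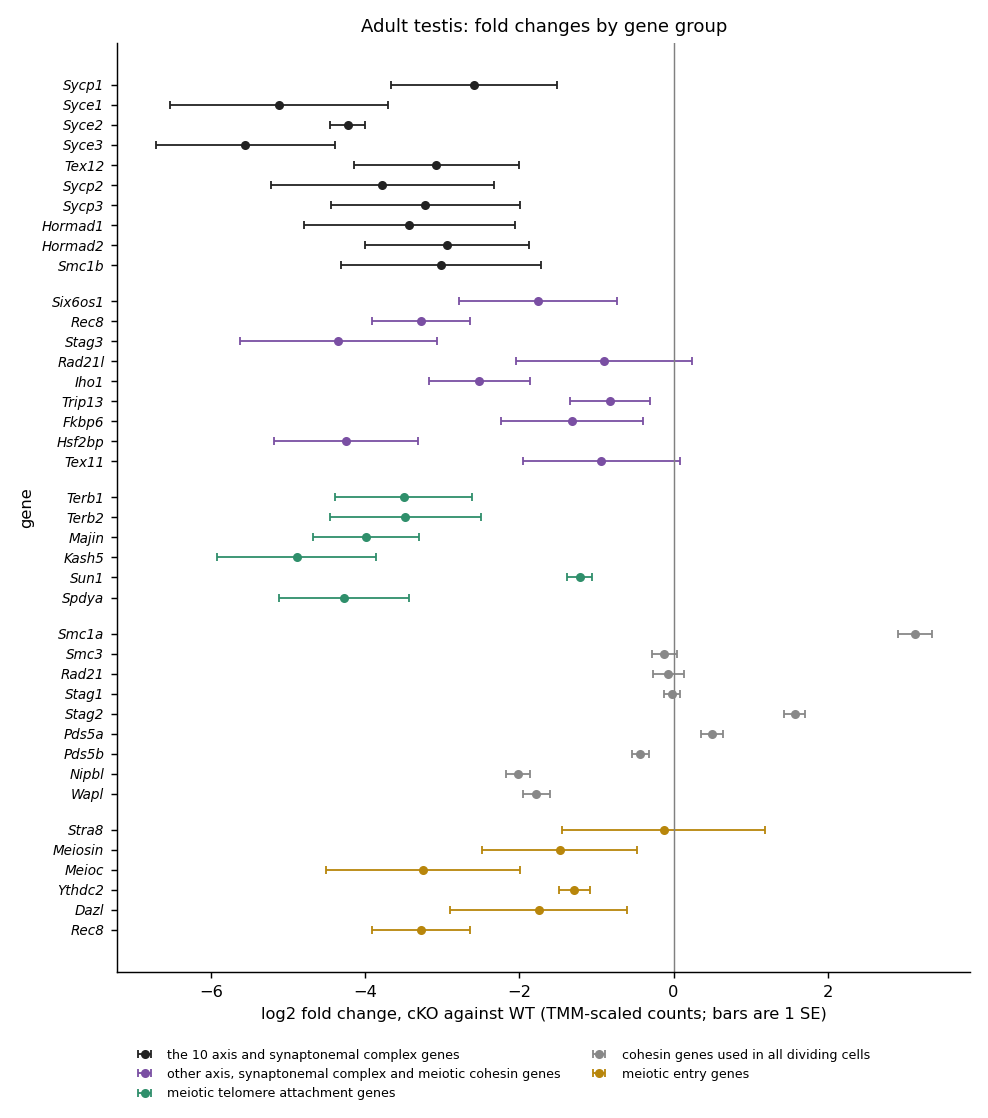
Log2 fold change of cKO against WT in adult testis for each gene tested, by group, on TMM-scaled counts; points are estimates and bars 1 SE. The 10 genes lie between -5.56 and -2.59, and the cohesin genes used in all dividing cells lie between -2.02 and 3.13.

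Among 10 other genes of the axis, the synaptonemal complex and meiotic cohesin, 9 were tested and none passed both thresholds with all samples, while 4 did so in the lower direction without cKO replicate 1, against 31.6% of all genes tested. With all samples, 4 of the 9 were lower at an adjusted p below 0.05, against 40.6% of all genes tested, and 6 were without cKO replicate 1, against 41.1%. The 4 were Stag3 and Rec8, subunits of meiotic cohesin, Hsf2bp, needed for recombinase loading, and Iho1, which works with HORMAD1 in break formation. Stag3 was at 86.23, 84.42 and 95.81 FPKM in WT and at 0.17, 10.33 and 15.36 in cKO (log2 fold change -4.35, adjusted p = 0.0189 in edgeR), which resembles the 10 genes. Six6os1, the SYCE1 partner listed as 4930447C04Rik, was at 10.79, 7.75 and 8.97 FPKM in WT and at 0.12, 5.53 and 9.14 in cKO, so that its groups overlapped through replicate 3 by FPKM, though not after division by the TMM factors. Rad21l, an early meiotic cohesin gene, was at 1.25, 1 and 1.45 in WT, listed at 0 in cKO replicate 1 and at 1.04 and 2.44 in the other two. Tex11, Fkbp6 and Trip13 were above the WT range in cKO replicate 3 by FPKM, with 7.18, 49.98 and 5.98, but this depends on scaling. After division by the TMM factors Fkbp6 and Trip13 were below WT in every cKO sample and Tex11 was within the WT range in replicate 3, and their log2 fold changes were -1.32, -0.82 and -0.94, with none at an adjusted p below 0.05 in edgeR. The median log2 fold change of the 9 was -1.76, or -1.06 without cKO replicate 1 and -0.87 with total counts.

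All 6 genes that tether meiotic telomeres to the nuclear envelope had an adjusted p below 0.05 and lower values, against 40.6% of all genes tested, with a median log2 fold change of -3.75. Without cKO replicate 1 all 6 passed both thresholds, against 31.6% of all genes tested in the lower direction. The adaptor Kash5 was at 40.81 to 41.92 FPKM in WT and at 0.09, 3.99 and 3.73 in cKO (log2 fold change -4.89, adjusted p = 0.00463 in edgeR). With all samples and TMM scaling Sun1, which many somatic cells also use, was the one of the 6 to pass both thresholds (log2 fold change -1.22, adjusted p = 0.000541 in edgeR), but with total counts it did not (log2 fold change -0.36, adjusted p = 0.0491 in edgeR). It was at 24.48, 19.12 and 22.43 FPKM against 27.49 to 30.86 in WT. The 9 cohesin genes used in all dividing cells went both ways: Smc1a and Stag2 were called higher and Nipbl and Wapl lower, and the median log2 fold change was -0.07, or 0.79 with total counts. With total counts the calls were 3 higher and 0 lower, where 5836 and 2252 of the 15919 genes tested were called. Smc1a and Stag2 were still called and Pds5a was added (log2 fold change 1.36, adjusted p = 0.000628 in edgeR), while Nipbl (log2 fold change -1.16, adjusted p = 0.00111 in edgeR) and Wapl (-0.92, adjusted p = 0.00346) no longer passed. Without cKO replicate 1, 2 genes were called in each direction, against 33.1% of all genes tested in the higher direction and 31.6% in the lower. Smc1a was at 1.61, 1 and 1.58 FPKM in WT and at 25.25, 19.36 and 22.15 in cKO (log2 fold change 3.13, adjusted p = 5.9e-05 in edgeR).

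With all samples and TMM scaling, all 6 meiotic entry genes had a log2 fold change below 0, as had 49.8% of all genes tested. Their median was -1.61, or -0.72 with total counts, and none passed both thresholds with either scaling. Without cKO replicate 1 the median was -1.04. Meioc, Ythdc2 and Rec8, 3 of the 6, then passed both in the lower direction, against 31.6% of all genes tested. Stra8 had a log2 fold change of -0.13, which became 0.78 with total counts and 0.57 without cKO replicate 1. Stra8, which starts the meiotic programme, was at 10.58, 9.43 and 8.43 FPKM in WT, listed at 0 in cKO replicate 1 and at 13.11 and 35.86 in replicates 2 and 3. Its partner gene Meiosin, listed as Bhmg1, was at 6.69, 4.66 and 6.84 in WT and at 0.12, 3.80 and 8.26 in cKO (log2 fold change -1.48, adjusted p = 0.212 in edgeR). In cKO replicate 3 Stra8 was above the WT range with and without division by the TMM factors, whereas Meiosin was above it by FPKM and below it after division. The median share of the WT mean over the 6 entry genes, in CPM without TMM scaling, was 59.9% in cKO replicate 2 and 102.7% in replicate 3, against 19.6% and 35.8% over the 10 genes. Of these entry genes Meioc (21.9% and 36.6%) and Rec8 (20.3% and 32.8%) were near the medians of the 10 genes. These are differences between lists in single samples and carry no test.

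Marker lists of some cell types were lower beside the members in adult testis, and others were higher or went both ways. The germ cell list had medians of 0.518%, 19.8% and 29.3% of the WT mean in cKO replicates 1, 2 and 3, where the 10 genes had 0.0799%, 19.6% and 35.8%. The list of pachytene and later spermatocytes had 0.0448%, 6.64% and 8.42%, and all of its 9 genes were below WT in every cKO sample, against 32.4% of all genes tested. The spermatid list had 0.00278%, 0.292% and 0.108%, and 9 of 9 were below WT, beside the same 32.4%. The spermatogonia list went both ways, with medians of 14.6%, 110.2% and 218.9%. Its median log2 fold change was 0.07, or 0.96 with total counts and 0.73 without cKO replicate 1. Of its 8 genes tested 3 were called higher and 0 lower, or 4 and 2 without cKO replicate 1. Of all genes tested 23% were called higher and 23.7% lower, and without this sample 33.1% and 31.6%. The 3 called higher with all samples were Kit, Zbtb16 and Etv5. After division by the TMM factors they were above WT in every cKO sample, replicate 1 included. Gfra1, Id4 and Nanos3 were below WT in every cKO sample, and Uchl1 and Lin28a differed between cKO samples. Sertoli cell markers summed to 533.1 to 684.8 FPKM in WT and to 639.0, 3377.5 and 4264.4 in cKO, and the 7 Leydig cell markers to 4044.3 to 5640.3 in WT and 65035.4 to 89587.2 in cKO. All 7 Leydig cell and all 7 macrophage genes rose past both thresholds, with and without cKO replicate 1. Of the 12 Sertoli cell genes 1 was called higher and 1 lower, and without this sample 11 and 1. The part of cell makeup in the lower levels of the members was not tested.

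**Figure D4:**
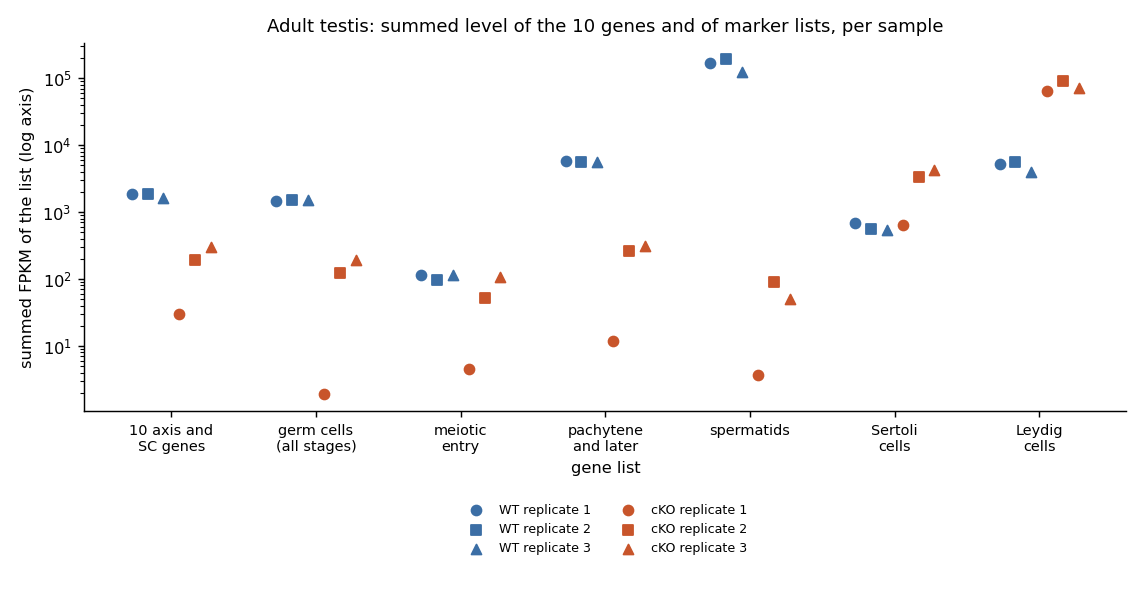
Summed FPKM of the 10 genes (SC, synaptonemal complex) and of 6 marker lists in each adult testis sample on a log axis; blue is WT, orange cKO and the shape the replicate. The 10 genes are at 30.1, 191.4 and 298.5 in the cKO samples, the germ cell list is lowest in cKO replicate 1 at 1.89, and the Leydig cell list is higher in all 3 cKO samples.

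The 5 other genes whose profile over the 6 adult samples lay closest to the median profile of the members, by Euclidean distance of centred log2(FPKM + 0.1) values, were Gml2, Ube2t, Ptchd3, Meioc and Ccdc172. Their distances were 0.44 to 0.67, where the median over 15909 genes was 7.65. Ube2t, a ubiquitin-conjugating enzyme of the Fanconi anaemia pathway, was at 80.41, 81.41 and 75.84 FPKM in WT and at 0.29, 13.93 and 23.70 in cKO. Meioc, which helps germ cells to stay in meiotic prophase, was at 23.26, 18.99 and 27.21 in WT and at 0.04, 5.05 and 8.46 in cKO. Of the members themselves Sycp3 was nearest to their median, at 0.24, and Syce2 farthest, at 4.49.

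A protein-coding gene on the opposite strand overlaps 4 of the members, and the sources used here do not say whether counting used the strand. Sycp3 shares 660 exon bases, 52.2% of its exon length in GENCODE M21, with Chpt1, a gene of phospholipid synthesis that was at 36.08 FPKM in cKO replicate 1 with 1129 counts, where Sycp3 had 11. Syce2 (chr8:84872111-84887446), Tex12 (chr9:50557148-50561268) and Smc1b (chr15:85064689-85131957) overlap Gcdh, Il18 and Fam118a but share 0 exon bases with them in GENCODE M21. Exon overlap was not examined in other gene sets. Gcdh, a mitochondrial enzyme gene, was at 1.85 to 2.10 FPKM in WT and at 28.75, 24.65 and 23.97 in cKO replicates 1, 2 and 3, beside 28.20, 46.12 and 45.68 for Syce2. The part of reads from Gcdh in the Syce2 values was not tested.

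In the day 7 Sertoli cells the members were scarce, and no difference passed the thresholds. The summed FPKM of the 10 genes was 27.8 and 33.5 in WT replicates 1 and 2 and 20.2 and 27.1 in cKO, so that both cKO sums lay below both WT sums. Hormad2 did not reach the minimum of 0.5 FPKM in 2 samples, and the other 9 members were tested. None was called, and neither was any of the 12880 genes tested (0% lower past both thresholds by edgeR); 1997 genes had an unadjusted p below 0.05 and DESeq2 called 126. Of the 10 members, 4 were lower in both cKO samples than in both WT samples, against 31.1% of the genes tested.

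**Figure D5:**
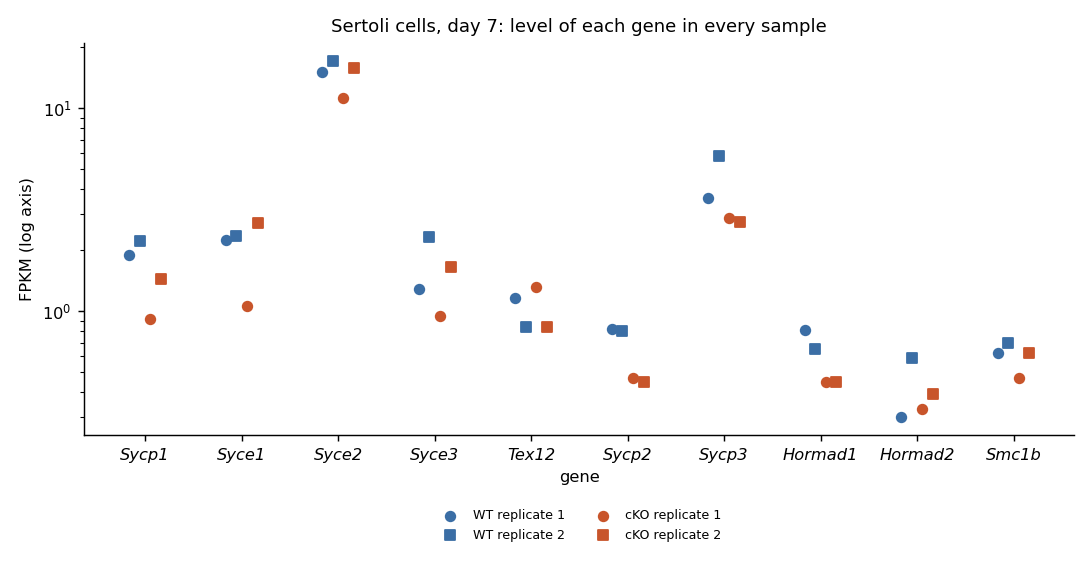
FPKM of the 10 genes in the 4 Sertoli cell samples of day 7 on a log axis; blue is WT, orange cKO and the shape the replicate. Sycp1, Sycp2, Sycp3 and Hormad1 are lower in both cKO samples, the other 6 genes overlap, and Syce2 is highest in every sample.

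The 4 members whose groups did not overlap, beside 31.1% of all genes tested, were Sycp1, Sycp2, Sycp3 and Hormad1. This split was not read by structural class. Sycp2 was at 0.82 and 0.80 FPKM in WT and at 0.47 and 0.45 in cKO, with a log2 fold change of -0.81 (SE 0.22, adjusted p = 0.233 in edgeR). Sycp3 was at 3.63 and 5.81 in WT and at 2.89 and 2.75 in cKO (log2 fold change -0.70, SE 0.31, adjusted p = 0.377 in edgeR). Sycp1 was at 1.90 and 2.22 in WT and at 0.92 and 1.44 in cKO (log2 fold change -0.60, SE 0.27, adjusted p = 0.371 in edgeR). For none of these 3 was the difference separated from the spread between samples by the adjusted test with all samples. Without cKO replicate 2, 4 members (Sycp1, Sycp2, Syce1 and Syce2) were lower at an adjusted p below 0.05, against 18.8% of the genes tested. Leaving out any other of the 4 samples gave none of the 9, and without cKO replicate 1 the lowest adjusted p was 0.0651 (Sycp2). Hormad1 was at 0.81 and 0.65 FPKM in WT and at 0.45 in both cKO samples, which is 11 counts in each (log2 fold change -0.63, SE 0.36, adjusted p = 0.468 in edgeR).

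Syce1, Syce2, Syce3, Tex12, Hormad2 and Smc1b overlapped between the groups. Syce2, the most abundant member at this age, was at 15.01 and 17.19 FPKM in WT and at 11.30 and 15.72 in cKO (log2 fold change -0.24, SE 0.20, adjusted p = 0.608 in edgeR). Syce1 was at 2.25 and 2.36 in WT and at 1.06 and 2.73 in cKO, where replicate 1 lay below both WT samples and replicate 2 above. Syce3 was at 1.29 and 2.31 in WT and at 0.95 and 1.66 in cKO, on 3 to 7 counts per sample. Tex12 rested on 5 to 8 counts per sample, with 1.16 and 0.84 FPKM in WT and 1.32 and 0.84 in cKO, so a difference was not detectable at this depth. Hormad2 was at 0.30 and 0.59 FPKM in WT and at 0.33 and 0.39 in cKO. Smc1b was at 0.62 and 0.70 in WT and at 0.47 and 0.62 in cKO (log2 fold change -0.24, SE 0.27, adjusted p = 0.72 in edgeR). For Syce1, Syce3 and Tex12 the direction of the fold change turned when 1 sample was left out.

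Germ cell markers were detected in the day 7 Sertoli cell samples, and they were lower in cKO beside the members. Dazl, a germ cell gene, was at 14.21 and 15.89 FPKM in WT and at 7.69 and 8.67 in cKO, and Stra8 at 18.80 and 23.04 in WT and 10.32 and 15.27 in cKO. All 5 germ cell markers found were lower in both cKO samples, against 31.1% of the genes tested, their sum being 32.6 and 37.5 FPKM in WT and 19.7 and 25.1 in cKO. Their median log2 fold change was -0.60, beside -0.41 over the 9 members tested, and none passed the thresholds. The 12 Sertoli cell markers summed to 1759.6 and 1643.7 in WT and to 1148.6 and 1334.9 in cKO, with Cldn11 at 228.89 and 213.74 in WT and at 14.01 and 150.35 in cKO. All 7 peritubular myoid markers were higher in both cKO samples, against 19.7% of the genes tested, at 4114.7 and 4290.5 summed against 2514.7 and 2376.1. The part of cell makeup in the day 7 values of the members was not tested.

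Of the 5 partner ratios at day 7, that of Smc1b to Smc1a did not overlap between the groups, and the other 4 did. Sycp2 to Sycp3 was -2.37 ± 0.49 (SD, n = 2) in WT and -2.38 ± 0.01 (n = 2) in cKO. Smc1b to Smc1a was -5.46 and -5.21 in WT and -5.66 and -5.75 in cKO, a difference of -0.37, and the exact permutation p was the smallest that 2 against 2 allows, which is above 0.05. In these cells Smc1a was at 29.61 to 31.57 FPKM in WT, and Smc1b below 1 FPKM in every sample. Among 10 other axis and synaptonemal complex genes 7 were tested at day 7, all with a log2 fold change below 0, as had 50.8% of all genes tested, and a median of -0.44, and none passed the thresholds. Trip13, which remodels HORMAD proteins, was the highest of these at 16.03 and 18.77 FPKM in WT and 13.84 and 17.35 in cKO.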

How the data were processed

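Poly(A) RNA of 6 adult testis samples (3 WT, 3 cKO) and 4 Sertoli cell samples of day 7 (2 and 2) was sequenced. According to the study's methods and the submitters' processing notes, the authors used HISAT against GRCm38.p6, Bowtie2 against reference genes, and RSEM for FPKM values; versions and strand handling are not given in the sources used here, and for adult testis only the notes apply. The deposited tables hold estimated counts, which are not normalized and of which 10.7% to 13.2% of values per sample are not whole. They also hold FPKM values, in which the authors corrected for length and depth, and TPM values, which the authors brought to a fixed total and which entered no test. A further 20 columns of the adult table are empty.

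Members and lists were chosen with earlier results of these data known. Groups were taken from sample titles. The tables were analysed apart. Estimated counts were rounded and tested with edgeR 4.0.16 (quasi-likelihood, TMM scaling, Benjamini-Hochberg adjustment over all genes) where FPKM was at least 0.5 in at least 3 adult or 2 day 7 samples, which left 15919 and 12880 genes. Calls used the study's thresholds, an absolute log2 fold change above 1 and an adjusted p below 0.001. Standard errors were derived from the fold change and the quasi-likelihood F statistic. Percentages of the WT mean use counts scaled to the library total, without TMM. Partner ratios used log2(FPKM + 0.1) and an exact two-sided permutation test. The text names all members, Rnf20, genes of the fixed lists and the 5 nearest profiles; the overlapping genes were named after their values were seen. Alternatives were other scalings, DESeq2 1.42.0, limma 3.58.1 on log2(FPKM + 0.1) or + 1, other filters, a looser threshold, the replicate number as a block and each sample left out. The code was tested on simulated data. Depth was 15431912 to 17705347 counts per sample, and the spread between samples limits most comparisons. Tools were R 4.3.3, Python 3.11.15, pandas 2.3.3, numpy 2.4.6, scipy 1.17.1 and matplotlib 3.10.9. Motifs were searched in RefSeq promoter windows of GRCm38.p6, and exon overlaps in GENCODE M21; protein sequences were not used here.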

Additional observations from a re-analysis of the deposited data

Results flagged for a closer look

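None of the members moved in opposite directions at the 2 ages with samples that all agreed, judged on TMM-scaled counts. Among the genes listed beside them, marker lists included, 12 did so, and in each case the difference between the ages was not tested. Sun1, a linker of telomeres and nuclear envelope, had a log2 fold change of -1.22 in adult testis and 0.12 in the day 7 Sertoli cells. Pds5a, a regulator of cohesin, had 0.50 in adult testis and -0.23 at day 7. By FPKM divided by the TMM factors, Pds5a in adult cKO replicate 1 lay within the WT range, at 7.28 against 6.1 to 7.31. Of the spermatogonia list, Kit had 3.51 in adult testis and -0.69 at day 7, Zbtb16 had 2.22 and -0.57, Etv5 had 1.5 and -0.30, and Id4 had -2.18 and 0.38. Of the Sertoli cell list, Gata4 had 3.03 in adult testis and -0.28 at day 7, Amh had 2.95 and -0.69, Wt1 had 1.5 and -0.49, and Rhox5 had -5.57 and 1.14. Actg2, a smooth muscle actin of the peritubular list, had -7.73 in adult testis and 0.81 at day 7, and the endothelial gene Pecam1 had 3.19 and -0.45. The 2 ages also differ in material, whole testis against cultured Sertoli cells, and the tables were normalized apart, so age and material cannot be told apart. Groups of 2 and 3 samples are too small for a test of single outlying samples.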

How the results depend on the processing

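Without cKO replicate 1 the number of members called lower in adult testis went from 1 to 10, so the count rests on that library; over all samples left out in turn it lay between 1 and 10. DESeq2 called 3 (Syce1, Syce2 and Syce3) among 5653 adult genes lower, an adjusted p below 0.05 gave 7, and the other scalings, filters and limma gave 1. Over all adult genes, with 3772 lower and 3660 higher calls, leaving out 1 sample gave 1613 to 5031 lower and 1082 to 5270 higher, the lowest without WT replicate 2; each sample left out gave fewer calls except cKO replicate 1, without which they were highest. Total counts gave 2252 and 5836, limma with a pseudocount of 0.1 gave 2468 lower and 5867 higher, with a pseudocount of 1 it gave 5689 higher, and an adjusted p below 0.05 gave 6466 and 6503. With the replicate number as a block 0 members and 0 genes were called in either direction (Syce2: log2 fold change -4.25, adjusted p = 0.00149), and at day 7 the block also gave 0. Same-numbered samples did not deviate together (correlations -0.00083, -0.0042 and 0.0385 in adult testis, 0.0325 at day 7), so the numbers were not treated as pairs. At day 7 no member was called in any fit. DESeq2 called 22 genes lower and 104 higher there, and leaving out 1 sample gave 0 to 311 lower and 0 to 339 higher, the most without cKO replicate 2, when a lone sample is assumed to vary like the other group. Without day 7 cKO replicate 2, 4 members had an adjusted p below 0.05, as did 2425 of 12880 genes in the lower direction, and none passed both thresholds. The adult log2 fold changes of the members kept their sign throughout. At day 7 the sign of 3 turned when samples were left out: Syce1 ranged from -1.07 to 0.27, Syce3 from -0.80 to 0.03 and Tex12 from -0.23 to 0.45. Adult partner differences turned with a pseudocount of 1 for Sycp2 to Sycp3 (0.02) and Syce2 to Tex12 (-0.55), and samples left out gave -1.60 to 1.83 for Syce2 to Tex12. At day 7 they turned for Sycp2 to Sycp3 with a pseudocount of 1 (0.25), and samples left out gave -0.36 to 0.33 for Sycp2 to Sycp3, -0.89 to 0.18 for Syce2 to Tex12, -0.34 to 0.38 for Syce1 to Syce3 and -0.92 to 0.14 for Hormad1 to Hormad2. The cause of these shifts was not tested. Low counts limit Syce3, Tex12, Hormad1 and Hormad2 at day 7.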
